A study of Rattus norvegicus with 12 samples.

Results

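The translation initiation factors (eIFs) and elongation factors (eEFs) of rat RBCs were followed through cold storage of whole blood. The members are the genes of the deposited expression table whose symbol starts with Eif or Eef and a digit, which includes the 4 kinases of eIF2 alpha, and they number 62 of 29539 genes. They were sorted into 15 factor groups by name, and 54 of the 62 passed the filter on low counts and were tested. As 6451 genes of the table have no symbol, a factor listed without one is missed. No member was named Eif5, Eif4b, Eif3l or Eif2s3, so the set is not complete. RBCs were purified by washing from the blood of male Wistar rats of 11 weeks, labelled wild type, that had been kept with the anticoagulant and preservative CPDA in the cold for 0 days (Cont), 10 days (10d) or 20 days (20d). There were 4 libraries per condition, and all conditions carried CPDA and the same washes. The blood of each rat was split into aliquots for the storage times, and the rat behind each library is not given, so the libraries were compared as unpaired. A storage time was also a day of purification, and these cannot be told apart.

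Translation starts when a 40S ribosomal subunit carrying eIF1, eIF1A, eIF3 and the eIF2-GTP-initiator tRNA complex is brought to the mRNA cap by eIF4E, eIF4G and the helicase eIF4A. It goes on through eEF1, which delivers aminoacyl tRNAs, and eEF2, which moves the ribosome along. eIF2B reloads eIF2 with GTP, and phosphorylation of eIF2 alpha by any of its kinases blocks that step. RBCs have no nucleus, and the authors of the study speculate that their RNA is made before the nucleus is lost. They also propose that leukocyte RNA may pass to RBCs during storage. In erythroid cells the haem-regulated kinase HRI, the product of Eif2ak1, is known to match globin translation to the supply of haem.

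The Cont libraries held between 65735930 and 85996710 counts, the 10d libraries between 71414307 and 79472764, and the 20d libraries between 67960637 and 76970267. The members took a small part of them, on average 0.0702% in Cont, 0.0624% in 10d and 0.0623% in 20d. Erythroid markers dominated the RNA, and 10 of them summed to 479768 to 555501 TPM (reads scaled by transcript length and to a common sum per library) in the 12 libraries. Other blood cells were present at low levels that moved with storage. The 9 neutrophil markers summed to 112 to 210 TPM across Cont libraries, 18.1 to 62.0 TPM across 10d libraries and 3.25 to 6.96 TPM across 20d libraries, and the 7 monocyte markers to 41.9 to 91.7, 3.26 to 18.2 and 1.13 to 2.66 TPM in the same order. Cd14 was at 0 in 10d. The 8 T cell markers gave 3.16 to 4.28, 0.519 to 0.687 and 0.0272 to 0.130 TPM, with Cd3d at 0 in 20d. The 7 B cell markers, by contrast, gave 3.58 to 5.61, 4.52 to 5.74 and 0.0694 to 0.368 TPM, and 9 platelet markers 0.642 to 1.68, 3.91 to 5.64 and 0.668 to 0.976 TPM. The 3 NK cell markers in the table summed to at most 0.629 TPM in any library, with Nkg7 at 0 in 10d and Nkg7 and Klrd1 at 0 in 20d. Leukocytes express most translation factors too, and the part of these cells in the results that follow was not tested. In bulk RNA, fewer cells of a type and less RNA per cell cannot be told apart.

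A few genes made up most of the RNA of these members, a set that lacks factors without a symbol. On the TPM scale, which corrects for transcript length, Eef1a1, the GTPase that brings aminoacyl tRNAs to the ribosome, averaged 296 ± 31.4 TPM in Cont, 258 ± 25.3 TPM in 10d and 257 ± 21.7 TPM in 20d (SD, n = 4 each). It was followed over the 12 libraries by Eif1, a guardian of start codon choice, at a mean of 84.8 TPM, by Eef1e1, which encodes the multisynthetase scaffold protein AIMP3 (p18), at 58.0 TPM, and by Eef2 at 52.1 TPM. These were the 4 members above 50 TPM, and they held 79.5% to 81.7% of the summed TPM of all members in every library. Eif3h, a subunit of eIF3, at 10.3 TPM and Eif2ak1 at 10.1 TPM completed the 6 members above 10 TPM. Only 30 members exceeded 1 TPM, the median member stood at 0.929 TPM, and 2 members, Eif6-ps1 and Eef1akmt3, had no count in any library. The members together summed to 640 ± 97.9 TPM in Cont, 556 ± 60.3 TPM in 10d and 532 ± 57.6 TPM in 20d (SD, n = 4 each). Their ranges of 511 to 745, 477 to 624 and 457 to 596 TPM overlapped.

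**Figure D1:**
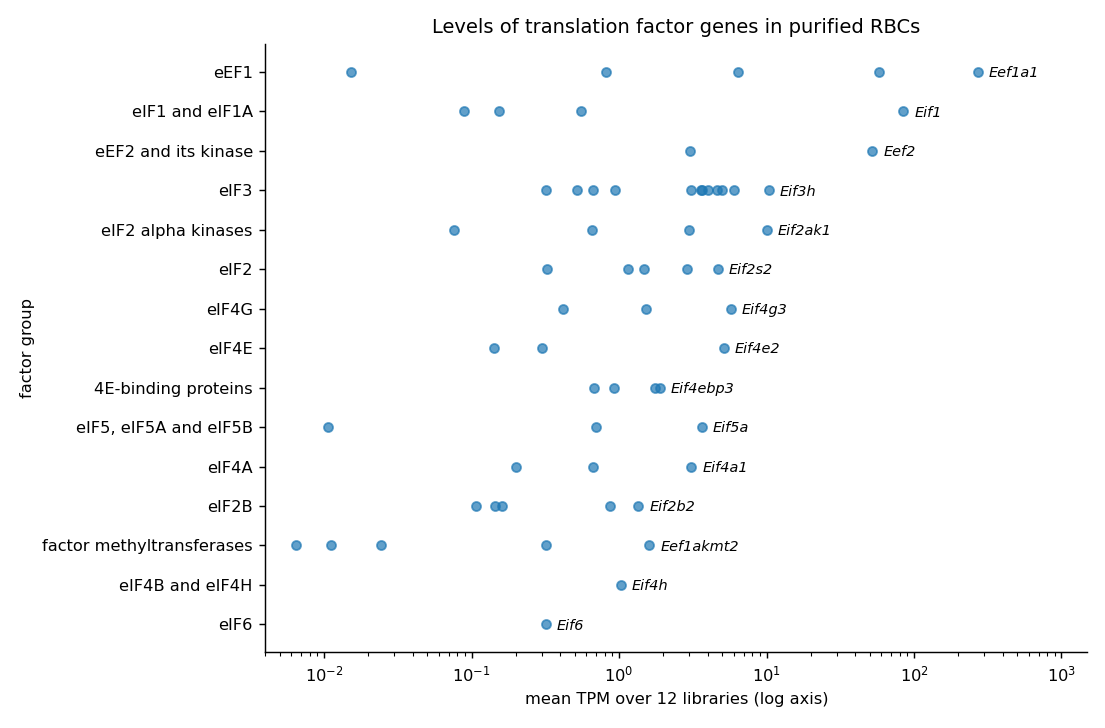
Each point is 1 member, placed by its mean TPM over the 12 libraries on a log axis, and each row is a factor group, ordered by summed level, with its most abundant member named. Eef1a1, Eif1, Eef1e1 and Eef2 lie above 50 TPM, apart from most other members, and the 2 members with no count are not drawn.

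Levels within a factor group were uneven. In the scaffold family eIF4G, Eif4g3 stood at 5.73 TPM over all libraries, against 1.52 TPM for Eif4g2, which encodes the eIF4E-independent homologue DAP5, and 0.417 TPM for Eif4g1. In the cap-binding family, Eif4e2, whose product 4EHP binds caps without joining eIF4G, reached 5.11 TPM, against 0.302 TPM for the canonical Eif4e and 0.141 TPM for Eif4e3. In the helicase family Eif4a1 stood at 3.09 TPM and Eif4a2 at 0.666 TPM, and the beta subunit of eIF2, Eif2s2, at 4.70 TPM exceeded the alpha subunit Eif2s1 at 1.47 TPM. The other groups were led by Eif4ebp3, a 4E-binding protein (1.90 TPM), Eif5a, the hypusine-bearing factor (3.66 TPM), and Eif2b2, the beta subunit of eIF2B (1.35 TPM). Others had as their highest member Eef1akmt2, a methyltransferase of eEF1A (1.60 TPM), Eif4h, a partner of eIF4A (1.03 TPM), and Eif6, which keeps ribosomal subunits apart (0.321 TPM). Counting can split reads among near-identical copies, and 29 members have a pseudogene under their own name in RefSeq, so their levels are uncertain. Eef1a1 has 20 of these, Eef1g 16 and Eif4e 10. In addition 24 members overlap another gene of the table. The row of Eef1e1 overlaps its same-strand neighbour Bloc1s5 over 25234 bases, the annotated span of Eif1 overlaps 9 other genes, and Eif4a1 encloses a small RNA gene on its strand that averaged 322 counts per library, against 208 for Eif4a1 itself. Eef1akmt2 overlaps its same-strand neighbour Fam53b over 90443 bases, and Fam53b averaged 264 counts per library, against 331 for Eef1akmt2.

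Several elongation and initiation factor mRNAs are known in mammals to begin with a terminal oligopyrimidine (TOP) tract, a C followed by pyrimidines through which mTORC1 controls their translation. RefSeq start sites (rat build GRCr8) were found for 55 of the 62 members, and the sense strand was searched for C followed by at least 4 bases that are each C or T. Exactly at the annotated start, 1 member, Eif2a, carried such a tract, against 2.63% of the 33469 rat promoters. Within 5 bases of the start 16 of 55 members (29.1%) did, against 17.0% of all promoters. Windows of 30 bases around the start follow, with the tract in capitals in 4 members, where it lies at differing distances from the annotated start. In Eef1g no such tract was found within 5 bases of the start, and the reason was not tested.
Eef1a1, chr8:88225055-88225084, minus strand: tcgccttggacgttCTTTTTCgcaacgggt
Eef1b2, chr9:72074076-72074105, plus strand: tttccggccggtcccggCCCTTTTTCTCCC
Eif2a, chr2:144911345-144911374, plus strand: ccagcgcatgggtttCTCTTTCCgggacaa
Eif3f, chr1:172369047-172369076, plus strand: tcacgcccttccgttctagCCTCTCTCTTT
Eef1g, chr1:215289800-215289829, plus strand: tttctctgcggaatcaccatggcggctggg
The members with a tract did not share a direction. Of those shown, after TMM scaling Eef1a1 rose (a sign that library size alone turns) and Eef1b2 fell at 20d against Cont, and Eif2a and Eif3f passed in no comparison.

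To ask which factors changed with storage, counts were compared with edgeR's quasi-likelihood test after TMM scaling, and p-values were adjusted over all 8382 genes tested (Benjamini-Hochberg). A gene is said to rise or fall where the adjusted p was under 0.05. At 10d against Cont, 5 of the 54 tested members passed (9.26%), beside 13.5% of all genes tested. Eif2d, Eif2ak1, Eif3j and Eef2 rose, beside 7.86% of all genes, and Eif2ak2 fell, beside 5.68%, and the median log2 fold change of the members was 0.03, beside -0.00 for all genes. At 20d against Cont, 18 members passed (33.3%), beside 33.9% of all genes, with 10 rises (beside 12.8%) and 8 falls (beside 21.1%) and a median of 0.05, beside -0.01 for all genes. Between 20d and 10d 4 members passed (7.41%), beside 16.0% of all genes, of which Eif3a and Eif3el1 rose, beside 3.38%, and Eif4ebp2 and Eif4g1 fell, beside 12.6%. By the stricter test of any difference among the 3 conditions, at an adjusted p under 0.0001, only Eif2ak1 passed, beside 6.13% of all genes. In all, 21 members changed in at least 1 pair and 33 in none, and 3 of the 5 members that changed by 10d also passed at 20d. The libraries of a pair did not overlap at 10d against Cont for 9 members (7 higher and 2 lower), beside 17.8% of all genes (9.6% higher and 8.17% lower). They did not overlap at 20d against Cont for 12 (8 higher and 4 lower), beside 31.4% (11.4% and 20.0%). At 20d against 10d this held for 10 (4 higher and 6 lower), beside 19.7% (6.26% and 13.4%). In this fit, with no pairing of libraries, the total shares called or apart among members were near or below the background in each pair. With the replicate number as a block, 20.4% of members passed at 10d against Cont, beside 18.7% of all genes. The shares were then 42.6% beside 38.3% at 20d against Cont and 18.5% beside 21.5% at 20d against 10d.

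**Figure D2:**
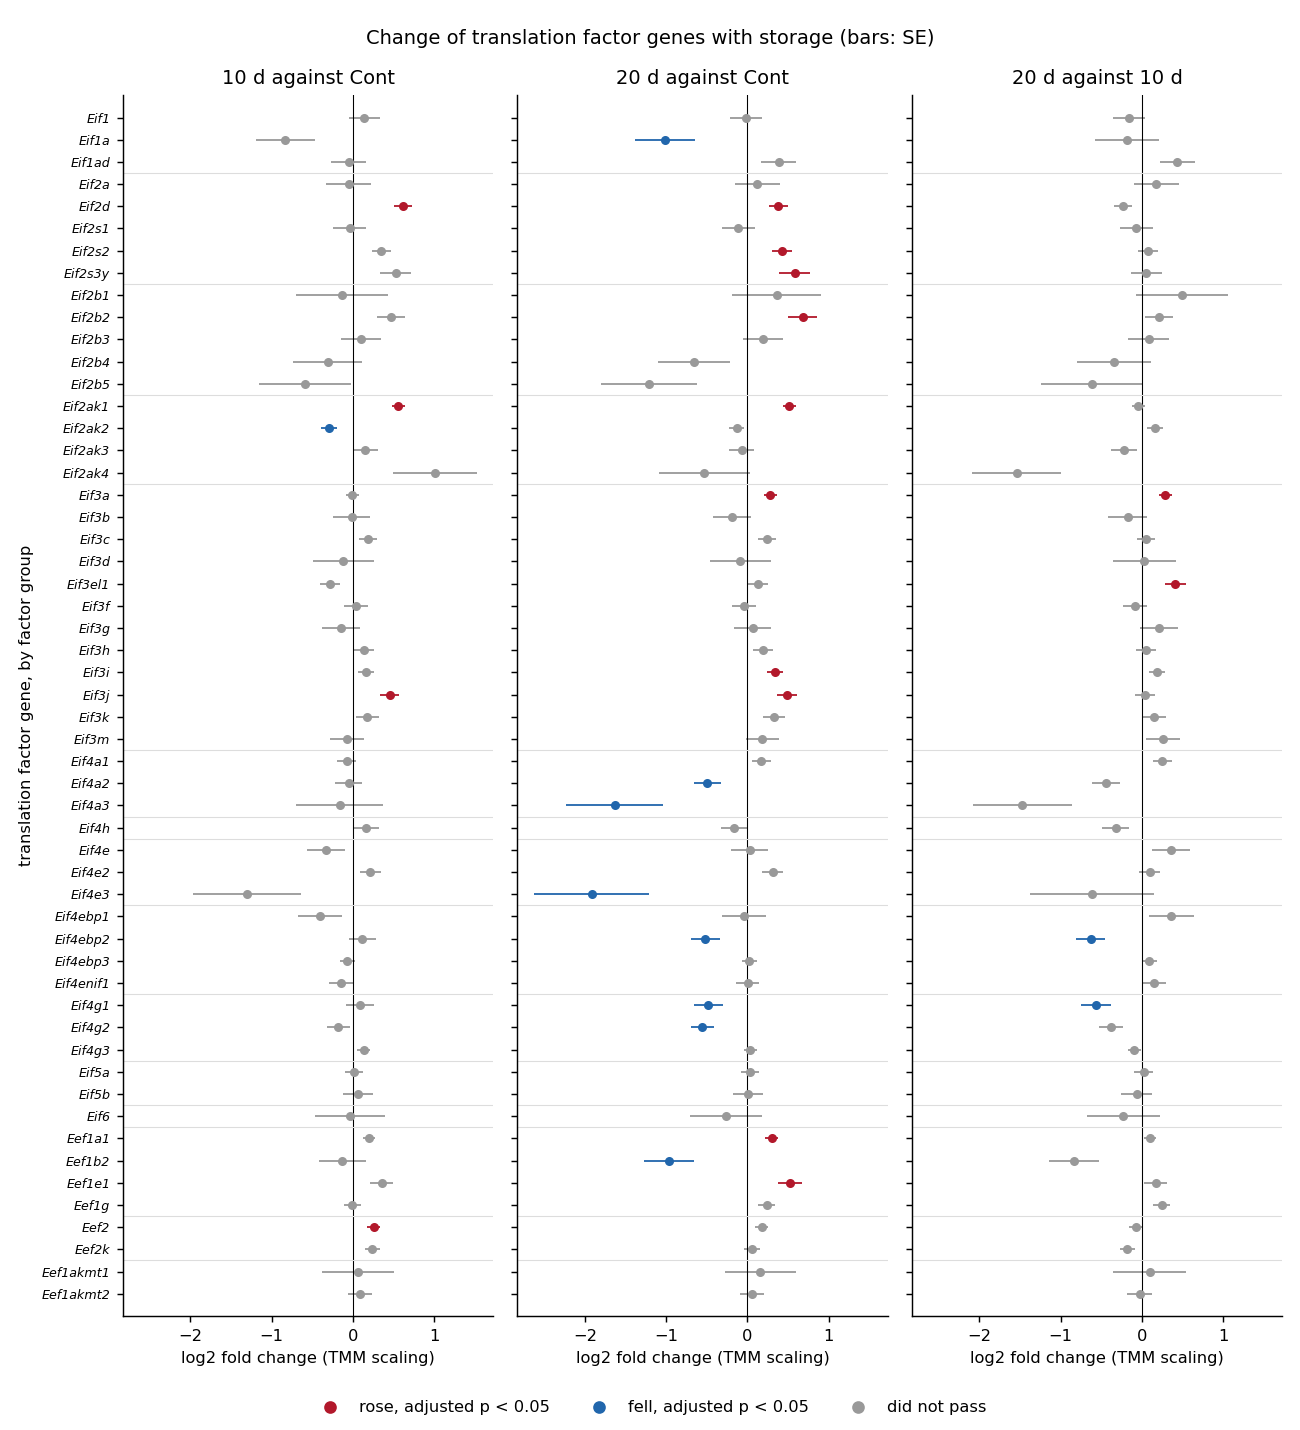
Log2 fold changes after TMM scaling of the 54 tested members (rows, by factor group) at 10d against Cont, 20d against Cont and 20d against 10d, with bars for the standard error, in red for a rise and blue for a fall at an adjusted p under 0.05. At 20d against Cont 10 rises lie mostly in eIF2, eIF3 and eEF1 rows and 8 falls mostly in eIF4 rows. With scaling by library size alone, none of the rises against Cont passed, and Eef2 at 10d and Eef1a1, Eif2d, Eif3a and Eif3i at 20d took the opposite sign.

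The rises depended on the scaling. The TMM factors of the Cont libraries (1.03 to 1.30) exceeded those of the 10d (0.859 to 0.985) and 20d libraries (0.864 to 0.949), and scaling by library size alone moved the median log2 fold change of all genes to -0.35 at 10d and -0.39 at 20d against Cont. Under that scaling 0 members rose and 11 fell at 10d, and 0 rose and 16 fell at 20d, while all 8 falls at 20d and the fall of Eif2ak2 at 10d were kept. Because it lowers the bulk of genes in stored libraries, it could not be expected to turn a fall. That the falls were kept is thus no added support for them. The rises against Cont below are therefore rises relative to the bulk of genes, and levels given as CPM (counts over library size) carry the TMM scaling.

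Among the eIF2 alpha kinases, Eif2ak1 (HRI, at chr12:10705874-10744573 of mRatBN7.2, minus strand) was the most abundant in every condition and the one that rose. It had 13.6, 12.4, 13.7 and 11.9 CPM in Cont, 19.3, 19.4, 19.9 and 17.5 CPM in 10d, and 18.5, 19.5, 17.6 and 18.3 CPM in 20d. All stored libraries lay above all Cont libraries, and the 10d and 20d libraries overlapped. Against Cont the log2 level was higher by 0.56 (SE 0.08, adjusted p = 9.06e-05) at 10d and by 0.52 (SE 0.08, adjusted p = 4.92e-05) at 20d, and the difference between 20d and 10d was -0.04 (SE 0.08). Both rises held without any single library, while the strict call among the 3 conditions (adjusted p = 3.24e-05) was lost without Cont replicate 2 or 4 (adjusted p = 0.00032 and 0.000269). With scaling by library size alone they were 0.20 (adjusted p = 0.115) and 0.13 (adjusted p = 0.295). Per length, Eif2ak1 averaged 9.65 TPM in Cont, 10.8 TPM in 10d and 9.73 TPM in 20d.

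Eif2ak2 encodes PKR, which double-stranded RNA activates. It had 6.62, 6.39, 6.43 and 6.61 CPM in Cont, 5.66, 4.92, 5.23 and 5.45 CPM in 10d, and 6.52, 5.17, 5.44 and 6.60 CPM in 20d. Every 10d library lay below every Cont library, whereas in 20d replicates 1 and 4 were at the Cont level and replicates 2 and 3 below it. It fell by 0.29 in log2 terms at 10d against Cont (SE 0.09, adjusted p = 0.0468). This call was lost without any of 9 libraries (each Cont and each 10d library and 20d replicate 3, adjusted p 0.0503 to 0.138). Its difference at 20d of -0.13 (SE 0.09, adjusted p = 0.304) did not pass. Eif2ak3 (PERK, the kinase of the endoplasmic reticulum) ranged from 1.21 to 1.91 CPM over the 12 libraries and passed in no pair. Eif2ak4 (GCN2, the sensor of uncharged tRNAs) was rare, with 22, 17, 4 and 16 counts in Cont, 21, 28, 20 and 23 in 10d, and 6, 2, 4 and 18 in 20d. It was highest in the 10d libraries after scaling, which overlapped with neither Cont nor 20d. Its log2 fold changes of 1.01 (SE 0.51, adjusted p = 0.238) at 10d against Cont and -1.54 (SE 0.55, adjusted p = 0.0632) at 20d against 10d did not pass. Platelet markers were also highest in 10d, at 3.91 to 5.64 TPM, and their part in this pattern was not tested. Per length, the order Eif2ak1, Eif2ak2, Eif2ak3, Eif2ak4 held in the mean of each condition. The means were 9.65, 3.94, 0.782 and 0.0737 TPM in Cont and 9.73, 2.53, 0.529 and 0.0367 TPM in 20d.

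**Figure D3:**
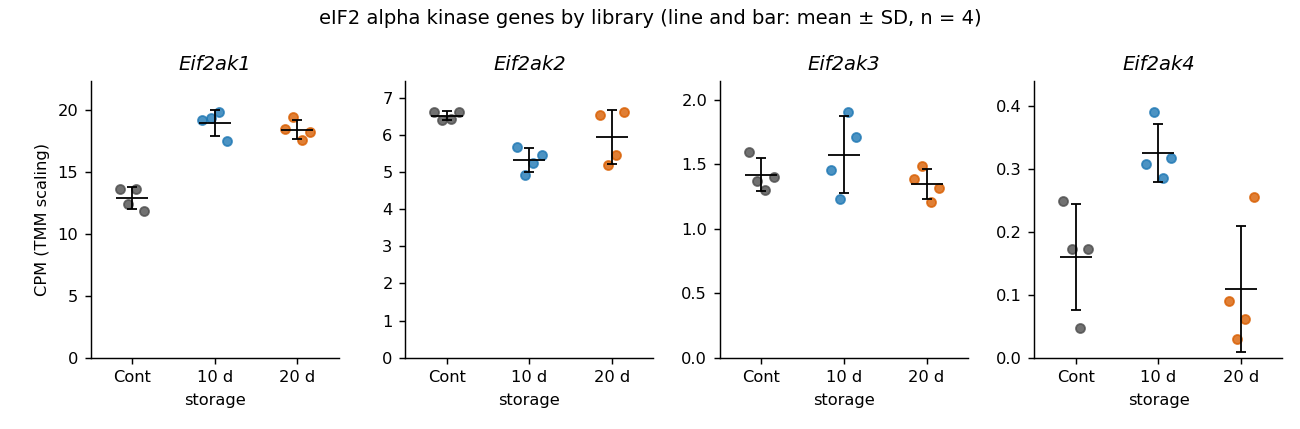
CPM after TMM scaling of the 4 eIF2 alpha kinase genes in each library (points) of Cont, 10d and 20d, with the mean and SD of 4 libraries. For Eif2ak1 the stored libraries sit between 17.5 and 19.9 CPM, above the Cont libraries at 11.9 to 13.7 CPM, a rise that did not pass with scaling by library size alone.

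The upstream region of Eif2ak1 is shown because it alone passed the strict test and GATA factors drive many erythroid genes. The letters GATAA were searched on both strands (TTATC on the reverse) of the promoter windows, 250 bases before the start and 50 from it on. They were found in 3 of 55 members (5.46%), against 26.5% of all promoters, and Eif2ak1 had 1 match (capitals), which is a description of letters and not a site. The 100 bases before its RefSeq start (GRCr8) were as follows.
Eif2ak1, chr12:15858165-15858264, minus strand: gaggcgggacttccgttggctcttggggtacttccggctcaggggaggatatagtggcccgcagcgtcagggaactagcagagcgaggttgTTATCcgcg

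At 20d against Cont 3 of 5 members filed by name under eIF2 rose and none fell, and 1 of 5 eIF2B subunits rose and none fell, beside 12.8% of all genes tested that rose. With scaling by library size alone none of these rises passed, Eif2d was at -2.13e-05, and 1 eIF2B subunit fell. Eif2d, which is no eIF2 subunit but a protein that can place tRNA on the ribosome without GTP, had 2.88, 3.01, 2.41 and 2.86 CPM in Cont, 3.87, 4.07, 4.22 and 4.91 CPM in 10d, and 3.23, 3.42, 4.11 and 3.78 CPM in 20d. Cont lay below all stored libraries. The rise was 0.61 at 10d (SE 0.11, adjusted p = 0.00119) and 0.38 at 20d (SE 0.11, adjusted p = 0.0144) on the log2 scale, in each case kept without any single library.

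Eif2s2 had 4.47, 4.52, 5.55 and 4.13 CPM in Cont, 5.03, 6.06, 6.30 and 6.40 CPM in 10d, and 5.43, 6.58, 7.44 and 5.57 CPM in 20d. The highest Cont library lay above the lowest library of each stored group. The log2 fold change was 0.42 at 20d against Cont (SE 0.12, adjusted p = 0.0114), against 0.35 at 10d (SE 0.12, adjusted p = 0.0648), which did not pass. Eif2s3y, the Y-linked copy of the eIF2 gamma gene, had 1.55, 2.37, 1.92 and 1.57 CPM in 20d, where all libraries lay above Cont with 1.12, 1.23, 1.24 and 1.37 CPM. Its rise of 0.58 (SE 0.19, adjusted p = 0.0272) was lost without 20d replicate 2 or 3 (adjusted p 0.0539 and 0.105). The alpha subunit Eif2s1, which carries the phosphorylation site, ranged from 0.677 to 1.29 CPM over all libraries and passed in no pair. Of eIF2B, Eif2b2 had 0.918, 0.892, 0.750 and 0.849 CPM in Cont, 1.11, 1.30, 1.09 and 1.21 CPM in 10d, and 1.07, 1.78, 1.41 and 1.20 CPM in 20d. Both stored groups lay above Cont, and only the 20d difference passed, at 0.68 (SE 0.18, adjusted p = 0.0061), against 0.47 (SE 0.18, adjusted p = 0.0953) at 10d. The catalytic subunit Eif2b5 had 12 libraries at or below 0.281 CPM and differed by -1.21 in log2 (SE 0.59, adjusted p = 0.13) at 20d, which did not pass.

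Of the 12 eIF3 members, 1 rose at 10d (beside 7.86% of all genes tested) and 3 rose at 20d against Cont (beside 12.8%), 2 rose at 20d against 10d (beside 3.38%), and none fell in any pair, although with scaling by library size alone no rise against Cont passed and Eif3a and Eif3i turned to -0.10 and -0.045 at 20d. Eif3a, the largest subunit and the scaffold of the complex, had 18.6, 16.7, 14.8 and 17.5 CPM in Cont, 16.8, 16.7, 16.5 and 17.3 CPM in 10d, and 20.5, 20.7, 21.1 and 20.0 CPM in 20d. The 20d libraries were tightly grouped and lay above all others. The rise was 0.28 (SE 0.08, adjusted p = 0.00806) against Cont and 0.29 (SE 0.08, adjusted p = 0.0157) against 10d. The rise against 10d passed in every one of 20 alternative settings, library size alone included (0.26, adjusted p = 0.0445).

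Eif3j, a loosely bound subunit that acts at the decoding site, had 3.02, 3.41, 3.89 and 3.48 CPM in Cont, 4.57, 4.92, 5.42 and 3.96 CPM in 10d, and 4.60, 5.08, 5.63 and 4.08 CPM in 20d. Both stored groups lay above Cont and overlapped with each other, with log2 fold changes of 0.45 at 10d (SE 0.12, adjusted p = 0.0174) and 0.49 at 20d (SE 0.12, adjusted p = 0.00426). The 10d rise was lost without Cont replicate 2 or 10d replicate 3 (adjusted p 0.056 and 0.0641). The row named Eif3el1 had 3.22, 3.54, 3.60 and 3.29 CPM in Cont, 2.49, 3.14, 2.26 and 3.32 CPM in 10d, and 3.56, 3.73, 3.41 and 4.22 CPM in 20d. Its 20d libraries lay above its 10d libraries and overlapped with Cont. The rise against 10d was 0.41 (SE 0.12, adjusted p = 0.0311), lost without 10d replicate 1 or 3 or 20d replicate 2 or 4 (adjusted p 0.0589 to 0.106). It was also lost with library size alone (0.38, adjusted p = 0.108). The row lies on chromosome 7, and RefSeq lists Eif3el1 both as an older name of Eif3e on that chromosome and as a gene elsewhere. Eif3i, a subunit of the outer module that was singled out after its values were seen, rose by 0.34 on the log2 scale at 20d against Cont (SE 0.10, adjusted p = 0.0129). The abundant Eif3h ranged from 10.9 to 15.3 CPM in 20d and from 9.77 to 13.1 CPM in Cont, groups that overlapped, and passed in no pair.

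Of the 8 falls at 20d against Cont, 6 were of genes with eIF4 names, though their products do not all act at the cap, as given for each. They were 2 of 3 eIF4A, 2 of 3 eIF4G, 1 of 3 eIF4E and 1 of 4 4E-binding genes, beside 21.1% of all genes tested that fell. Eif4h, the 1 member of the eIF4B and eIF4H group, did not pass (-0.16, adjusted p = 0.483), and none of these groups had a rise. The groups are small, and the 8 falls are out of 54 tested members. None of the 6 genes had passed at 10d. All kept their direction with scaling by library size alone. That scaling lowers the bulk of genes in stored libraries, so it could not be expected to turn a fall. In the same libraries the neutrophil markers summed to 3.25 to 6.96 TPM in 20d, against 112 to 210 TPM in Cont, and Ptprc, which marks leukocytes, stood at 0.177 to 0.440 TPM in 20d, against 1.50 to 4.36 TPM in Cont, and their part in these falls was not tested. Eif4g2 (DAP5) had 3.14, 4.80, 4.12 and 4.85 CPM in Cont, 3.27, 3.65, 3.95 and 4.08 CPM in 10d, and 2.19, 3.16, 3.13 and 3.03 CPM in 20d. The 20d libraries lay below all 10d libraries and overlapped with Cont only through Cont replicate 1. The fall was -0.55 (SE 0.14, adjusted p = 0.00628) at 20d against Cont, and it was the only fall against Cont that passed in every one of the 20 alternatives (-0.95 to -0.44). At 20d against 10d it was -0.38 (SE 0.15, adjusted p = 0.0909).

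Eif4g1, the canonical scaffold of the cap complex, had 0.997, 1.25, 1.48 and 1.33 CPM in Cont, 1.57, 1.38, 1.07 and 1.34 CPM in 10d, and 1.07, 0.795, 0.915 and 0.836 CPM in 20d. Apart from 20d replicate 1 the 20d libraries lay below all others. It fell by 0.48 on the log2 scale against Cont (SE 0.18, adjusted p = 0.0439) and by 0.57 against 10d (SE 0.18, adjusted p = 0.0394). These calls were lost without any of 8 and 9 libraries (adjusted p 0.056 to 0.178 and 0.0559 to 0.107). Both were lost without replicate 2, 3 or 4 of Cont or of 20d or replicate 2 or 4 of 10d, and the second also without 10d replicate 1. The fall against 10d was lost with library size alone too (-0.59, adjusted p = 0.0601), and with DESeq2 and TMM without globin and 7SL genes. It passed in 6 of 20 alternatives, and the fall against Cont in 10 of 20. The most abundant scaffold, Eif4g3, ranged from 22.2 to 28.0 CPM over all libraries and passed in no pair.

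The helicase gene Eif4a2, singled out after its values were seen, had 1.79, 1.43, 1.64 and 1.17 CPM in Cont, 1.69, 1.32, 1.39 and 1.42 CPM in 10d, and 1.08, 0.975, 1.30 and 0.921 CPM in 20d. The 20d libraries lay below all 10d libraries and overlapped with Cont. It fell by 0.49 at 20d against Cont (SE 0.17, adjusted p = 0.0314), a call lost without replicate 1, 2 or 3 of Cont or replicate 1, 2 or 4 of 20d (adjusted p 0.0577 to 0.112). Its paralogue Eif4a1 ranged from 2.85 to 3.29 CPM in 20d, above the 10d range of 2.41 to 2.66 CPM and overlapping the Cont range of 2.14 to 2.89 CPM, and passed in no pair. Eif4a3 belongs by function to the exon junction complex and had few counts, 12, 19, 24 and 22 in Cont, 22, 9, 9 and 13 in 10d, and 4, 0, 6 and 8 in 20d. Its 20d libraries were the lowest, and the fall of 1.64 on the log2 scale against Cont (SE 0.60, adjusted p = 0.0424) was lost without replicate 2, 3 or 4 of Cont, 10d replicate 4 or replicate 1, 2 or 3 of 20d (adjusted p 0.0524 to 0.114).

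Eif4e3, an atypical cap-binding protein, had 24, 24, 23 and 34 counts in Cont, 0, 13, 6 and 14 in 10d, and 0, 7, 9 and 4 in 20d. Both stored groups lay below Cont after scaling. The fall of 1.92 on the log2 scale at 20d (SE 0.71, adjusted p = 0.044) was lost without any Cont library, 10d replicate 3 or replicate 1, 2 or 4 of 20d (adjusted p 0.0503 to 0.101), and the 10d difference of -1.30 (SE 0.67, adjusted p = 0.242) did not pass. Eif4e2 was much higher, with 15.7, 19.4, 21.2 and 21.9 CPM in 20d and 12.3, 16.1, 17.7 and 16.9 CPM in Cont, groups that overlapped. The difference of 0.31 (SE 0.13, adjusted p = 0.065) did not pass. Eif4ebp2, whose product withholds eIF4E from eIF4G when mTORC1 is off, had 1.79, 1.86, 2.79 and 2.53 CPM in Cont, 2.21, 2.75, 2.36 and 2.39 CPM in 10d, and 1.49, 1.96, 1.15 and 1.66 CPM in 20d. All 20d libraries lay below 10d, and 20d replicate 2 lay above the lower Cont libraries. It fell by 0.63 against 10d (SE 0.17, adjusted p = 0.0194) and by 0.52 against Cont (SE 0.17, adjusted p = 0.0274). The first call was lost without 10d replicate 2 or 20d replicate 3 (adjusted p 0.0655 and 0.0676), and the second without replicate 3 or 4 of Cont or replicate 1 or 3 of 20d (adjusted p 0.0649 to 0.133). Eif4ebp3 ranged from 7.42 to 10.0 CPM over all libraries and had a difference of 0.02 (SE 0.09) at 20d against Cont. Per length it stood near Eif4ebp2, with means of 1.90 and 1.75 TPM over all libraries and 1.69 and 1.86 TPM in 10d. Its row spans chr18:28162311-28268024. In Cont replicate 1 it had 749 counts at 1.88 TPM, against 46 counts at 0.476 TPM for Eif4ebp1. Its TPM thus rests on a longer transcript length than that of Eif4ebp1, and its level as a 4E-binding gene is uncertain. Whether other transcripts share its reads was not tested.

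**Figure D4:**
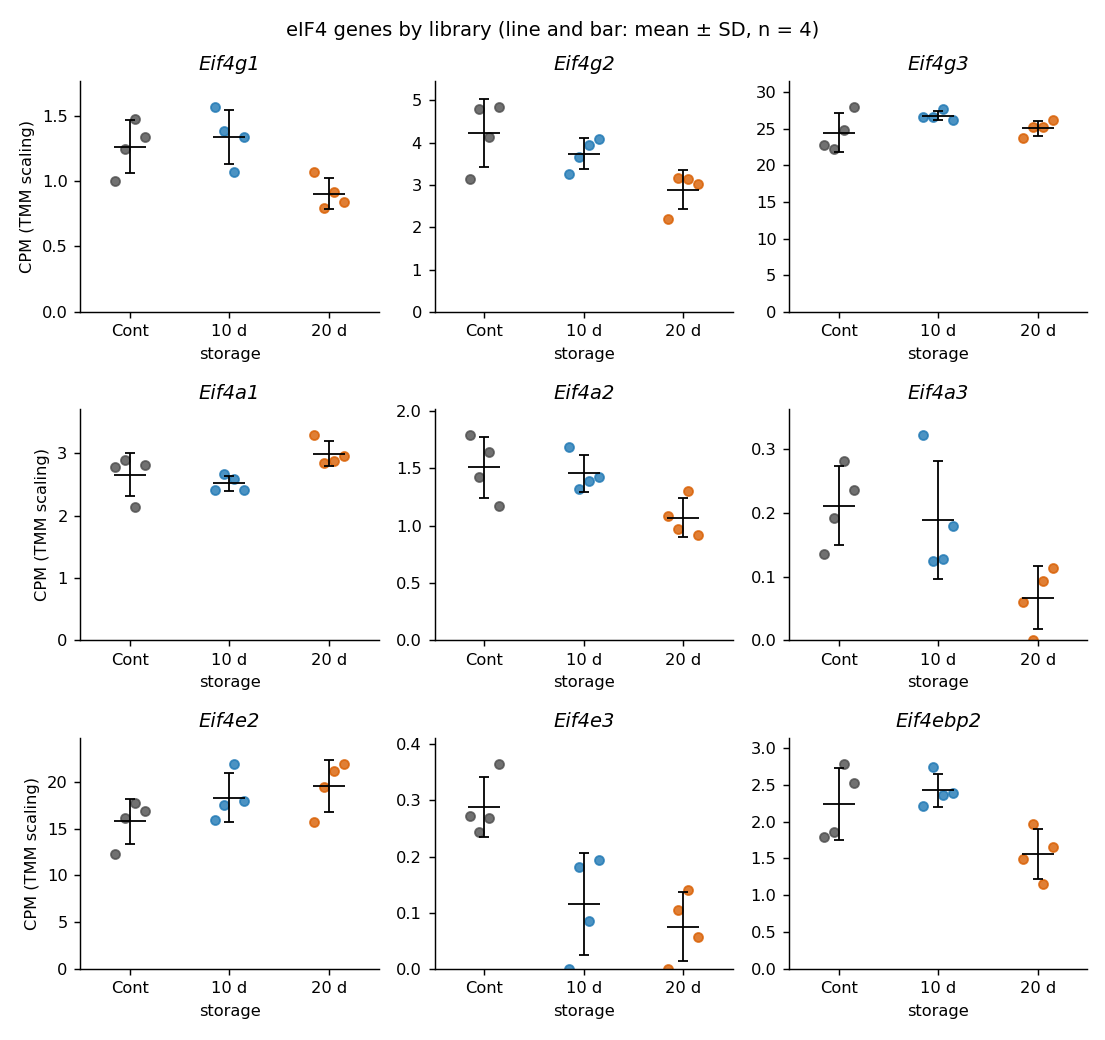
CPM after TMM scaling of 9 genes of the eIF4 family in each library (points) of Cont, 10d and 20d, with the mean and SD of 4 libraries. The low members Eif4g1, Eif4g2, Eif4a2, Eif4a3, Eif4e3 and Eif4ebp2 are lowest on average in 20d, while the abundant Eif4g3 stays between 22.2 and 28.0 CPM.

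Among the start codon factors, Eif1 was abundant and did not pass in any pair. It had 47.5, 76.9, 89.5 and 75.3 CPM in Cont, 58.2, 93.3, 93.5 and 74.1 CPM in 10d, and 45.9, 80.5, 87.4 and 72.0 CPM in 20d. Replicate 1 was the lowest in each condition, and the spread within a condition exceeded any difference between them. Eif1a, its partner on the 40S subunit, had 36, 50, 38 and 32 counts in Cont, 28, 15, 11 and 13 in 10d, and 22, 11, 14 and 9 in 20d. After scaling the 20d libraries lay below all Cont libraries. The fall at 20d was -1.02 (SE 0.37, adjusted p = 0.041), lost without any Cont library or replicate 2, 3 or 4 of 20d (adjusted p 0.0523 to 0.121). The 10d difference of -0.84 (SE 0.36, adjusted p = 0.156) did not pass. Eif5a ranged from 2.32 to 3.12 CPM over all libraries with differences of 0.01 at 10d and 0.04 at 20d against Cont (SE 0.11 each). Eif5b, the GTPase of subunit joining, and Eif6 likewise passed in no pair.

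Elongation factors rose or fell by subunit. Eef1a1 had 231, 203, 216 and 237 CPM in Cont, 243, 239, 260 and 273 CPM in 10d, and 259, 252, 283 and 295 CPM in 20d. All stored libraries lay above all Cont libraries. The rise was 0.30 at 20d (SE 0.08, adjusted p = 0.0053) and the 10d difference 0.19 (SE 0.08, adjusted p = 0.105), yet with library size alone the 20d value was -0.088 (adjusted p = 0.499). On the TPM scale the mean was lower in 20d than in Cont, as given above. Eef2, the translocase, had 107, 94.0, 94.6 and 106 CPM in 10d, against 92.3, 77.8, 78.9 and 87.9 CPM in Cont, without overlap. It rose by 0.26 at 10d (SE 0.08, adjusted p = 0.0413), a call lost without replicate 2, 3 or 4 of Cont or replicate 1 or 4 of 10d (adjusted p 0.0721 to 0.16) and turned to -0.10 with library size alone. At 20d the difference was 0.18 (SE 0.08, adjusted p = 0.0983). Its inhibitory kinase Eef2k differed by 0.24 at 10d (SE 0.09, adjusted p = 0.106) and 0.06 at 20d (SE 0.09) against Cont and did not pass.

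Of the exchange factor that reloads eEF1A, a catalytic subunit gene, Eef1b2, fell and the scaffold gene Eef1g did not pass. No member was named Eef1d, another gene of that factor. Eef1b2 had 57, 93, 70 and 56 counts in Cont, 42, 50, 49 and 54 in 10d, and 12, 18, 29 and 45 in 20d. In CPM the highest 20d library (0.638) lay above the lowest Cont library (0.602). The fall at 20d against Cont was -0.96 (SE 0.31, adjusted p = 0.0204), lost without replicate 2 or 3 of Cont or replicate 1 or 2 of 20d (adjusted p 0.0528 to 0.0743). Eef1g had 7.92, 8.20, 9.41 and 10.0 CPM in 20d and 8.32, 6.69, 7.86 and 7.31 CPM in Cont, which overlapped, with a difference of 0.24 (SE 0.10, adjusted p = 0.0838). Eef1e1 rose by 0.52 at 20d (SE 0.14, adjusted p = 0.00891), with 33.7, 52.3, 56.2 and 43.2 CPM in 20d and 25.2, 33.3, 37.2 and 33.1 CPM in Cont. Its groups overlapped, since 20d replicate 1 lay below Cont replicate 3. The rise did not pass with library size alone (0.13, adjusted p = 0.638). The methyltransferase gene Eef1akmt2 ranged from 3.43 to 6.01 CPM over all libraries and passed in no pair.

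Ratios of counts of a pair of members within the same library do not depend on any scaling. The 6 ratios given here were chosen after the values were seen, so they are a description with no test. Eif2ak1 over Eif2ak2 averaged 3.59 ± 0.337 in 10d and 1.98 ± 0.142 in Cont, and 3.15 ± 0.458 in 20d against the same Cont value (SD, n = 4 each here and below), without overlap. Eif4g2 over Eif4g3 averaged 0.114 ± 0.0151 in 20d and 0.173 ± 0.0326 in Cont, without overlap, and Eif4g1 over Eif4g3 0.0362 ± 0.00630 in 20d and 0.0517 ± 0.00732 in Cont, with overlap. Eif4a2 over Eif4a1 averaged 0.358 ± 0.0635 in 20d, against 0.580 ± 0.0862 in 10d, without overlap, and against 0.580 ± 0.156 in Cont, with overlap. Eef1b2 over Eef1g averaged 0.0418 ± 0.0178 in 20d, against 0.0922 ± 0.00756 in 10d and 0.101 ± 0.0288 in Cont, without overlap in either case. Eef1e1 over Eef1g averaged 5.23 ± 1.10 in 20d and 4.32 ± 0.880 in Cont, groups that overlapped.

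**Figure D5:**
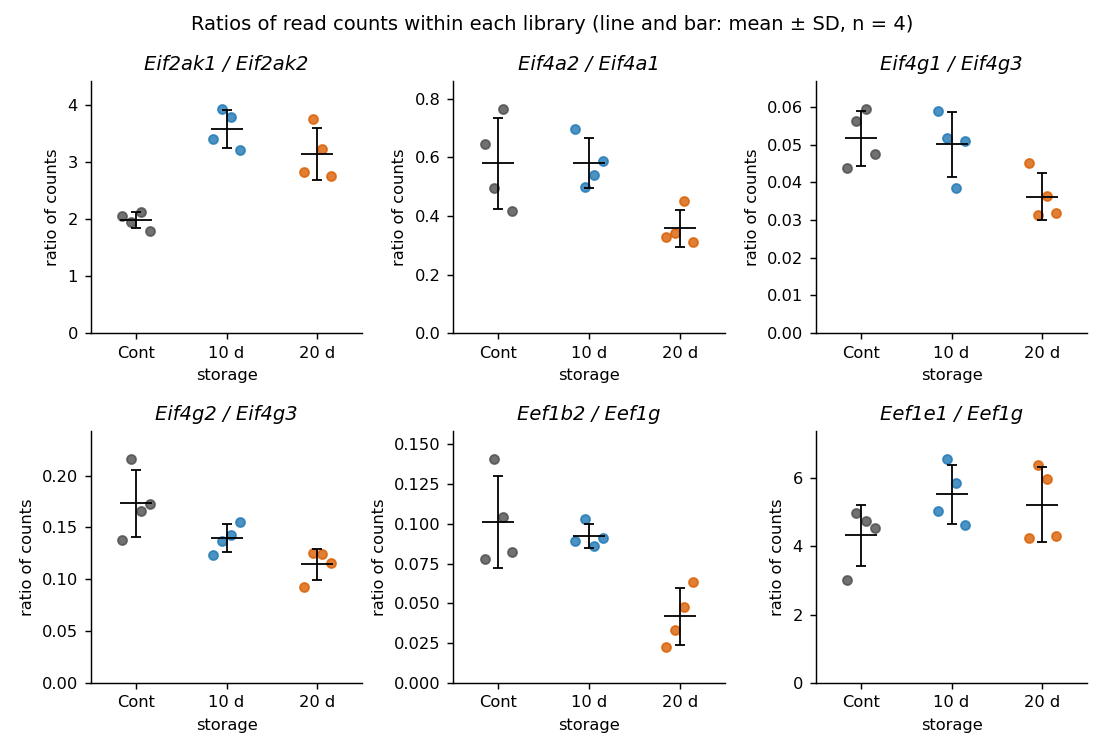
Ratio of the read counts of a pair of translation factor genes in each library (points) of Cont, 10d and 20d, with the mean and SD of 4 libraries. Eif2ak1 over Eif2ak2 is higher in 10d and 20d than in Cont, the ratios of Eif4g2 and Eif4g1 to Eif4g3, of Eif4a2 to Eif4a1 and of Eef1b2 to Eef1g are lowest on average in 20d, and Eef1e1 over Eef1g overlaps between conditions.

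The 8 members that failed the filter on low counts were Eef1a2, the muscle and neuron form of eEF1A, with 41 counts over the 12 libraries, Eif1b with 68, and Eif5a2 with 22. The others were Eef1aknmt with 53, Eef2kmt with 8, Eef1akmt4 with 3, and Eef1akmt3 and Eif6-ps1 with 0. Eef1aknmt, a methyltransferase of eEF1A, had 31 counts in Cont, 17 in 10d and 5 in 20d, and no test was made.

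Genes that act on these factors were read from lists drawn up by function. Of 17 genes of the eIF2 phosphatases and the stress response downstream of eIF2 alpha, 14 were tested. Of these, 4 rose and 1 fell at 10d, 3 rose and 3 fell at 20d against Cont, and 4 fell at 20d against 10d. All genes tested had 7.86% rises and 5.68% falls, 12.8% and 21.1%, and 3.38% and 12.6% in these pairs. With library size alone the list had 1 rise and 3 falls at 10d, 1 and 5 at 20d against Cont, and 0 and 3 at 20d against 10d. Asns, the asparagine synthetase gene that ATF4 switches on, had 20.1, 21.3, 27.9 and 23.8 CPM in Cont, 37.7, 42.7, 51.3 and 41.2 CPM in 10d, and 29.3, 33.9, 37.2 and 33.6 CPM in 20d. All stored libraries lay above Cont. The log2 fold changes were 0.89 at 10d (SE 0.11, adjusted p = 4.42e-05) and 0.53 at 20d (SE 0.11, adjusted p = 0.00129), and the first passed with library size alone (0.53, adjusted p = 0.0223) and the second did not (0.13, adjusted p = 0.55). Atf4 itself, named after its values were seen, rose by 0.53 at 10d (SE 0.15, adjusted p = 0.0207) and 0.56 at 20d (SE 0.15, adjusted p = 0.00621), and neither passed with library size alone (0.17 each). The 10d call of Atf4 was lost without Cont replicate 4 or 10d replicate 2 or 3 (adjusted p 0.0541 to 0.0736). The 4 falls at 20d against 10d were of Asns (-0.37, adjusted p = 0.031), Ddit3 (-1.22, adjusted p = 0.0319), Sesn2 (-1.23, adjusted p = 0.0188) and Ppp1r15b. The 3 falls at 20d against Cont were of Ddit3 (-1.02, adjusted p = 0.0407), Ppp1cc (-0.74, adjusted p = 0.000442) and Ppp1r15b. Ddit3, Sesn2 and Ppp1cc were named after their values were seen. The falls of Asns, Ddit3 and Sesn2 were each lost without some single library.

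Ppp1r15b, the constitutive targeting subunit of the eIF2 alpha phosphatase, had 1.11, 1.48, 1.69 and 1.28 CPM in Cont, 1.01, 1.03, 1.05 and 0.910 CPM in 10d, and 0.391, 0.675, 0.388 and 0.368 CPM in 20d. All 20d libraries lay below the others. It fell by 1.61 against Cont (SE 0.22, adjusted p = 1.94e-05) and by 1.13 against 10d (SE 0.22, adjusted p = 0.00197), in every one of 20 alternatives. The stress-inducible partner Ppp1r15a, named after its values were seen, differed by 0.21 at 20d against Cont (SE 0.11, adjusted p = 0.148) and did not pass. The catalytic subunit Ppp1cb, which serves many phosphatases, rose by 0.57 at 10d (SE 0.08, adjusted p = 0.00018) and 0.65 at 20d (SE 0.08, adjusted p = 1.22e-05), the second also with library size alone (0.26, adjusted p = 0.0375).

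Of 13 mTORC1 and MNK pathway genes, all tested, 3 rose at 10d, 2 rose and 1 fell at 20d against Cont, and 1 rose and 2 fell at 20d against 10d, to be read beside the same shares of all genes. With library size alone these counts became 0 rises and 3 falls, 0 and 5, and 0 and 2. The eIF4E kinase genes went apart. Mknk1 rose by 0.61 at 10d (SE 0.11, adjusted p = 0.00134) and 0.70 at 20d (SE 0.11, adjusted p = 0.000123), although neither passed with library size alone. Mknk2 fell by 0.49 at 20d against 10d (SE 0.10, adjusted p = 0.00239). It fell by 0.29 against Cont (SE 0.10, adjusted p = 0.0298, lost without replicate 3 or 4 of Cont or replicate 1, 2 or 3 of 20d, adjusted p 0.0736 to 0.136). Larp1, which binds TOP mRNAs, rose by 0.50 at 10d against Cont (SE 0.12, adjusted p = 0.00979, lost without Cont replicate 2, adjusted p = 0.0556, and with library size alone, 0.15, adjusted p = 0.402). It fell by 0.57 at 20d against 10d (SE 0.12, adjusted p = 0.00472). Of 9 tested mRNA and cap partners 1 rose at 20d against Cont, Gigyf2 (0.32, SE 0.12, adjusted p = 0.0433), a partner of 4EHP. In that list 1 fell at 20d against 10d, Pabpc1 (-0.66, SE 0.21, adjusted p = 0.0366), the poly(A)-binding protein gene. Both calls lay near the threshold. Gigyf2 lost its call without Cont replicate 2 or 3 or any 20d library (adjusted p 0.0509 to 0.0971) and turned to -0.058 with library size alone. Pabpc1 lost its call without replicate 2 or 4 of Cont, replicate 2 or 3 of 10d or replicate 1, 2 or 3 of 20d (adjusted p 0.0514 to 0.112). It also lost the call with library size alone (-0.69, adjusted p = 0.0934), DESeq2 and TMM without globin and 7SL genes.

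Of 8 tested termination and recycling genes, Hbs1l, a ribosome rescue factor, rose by 0.37 at 10d (SE 0.11, adjusted p = 0.0292, lost without replicate 2 or 3 of Cont or replicate 1, 2 or 4 of 10d, adjusted p 0.0564 to 0.126) and 0.41 at 20d (SE 0.11, adjusted p = 0.00701), neither with library size alone. No other gene of the list passed in any pair. Of 7 tested genes that modify eIF5A or eEF2, Dph6, of diphthamide synthesis, rose by 1.31 at 20d against Cont (SE 0.45, adjusted p = 0.0325). That call was lost without replicate 2 or 4 of Cont or replicate 2 or 3 of 20d (adjusted p 0.0508 to 0.189) and with library size alone. None of 8 tested mitochondrial translation factor genes passed in any pair with edgeR. They had median log2 fold changes of -0.04 at 10d and 0.11 at 20d against Cont, and 0 of them had an unadjusted p under 0.05.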

How the data were processed

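The authors prepared rRNA-depleted libraries from total RNA of purified RBCs, mapped paired reads to the assembly mRatBN 7.2 with CLC Genomics Workbench and deposited 1 table. Its counts were deposited as raw read counts per gene, and its TPM values, which the authors scaled by transcript length and to a common sum per library, were used only for levels between genes. The deposited RPKM and CPM columns, and the columns of the authors' comparisons (fold changes, p-values, FDR, Bonferroni values and largest group means), were not used here.

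Counts were analysed with edgeR 4.0.16 in R 4.3.3. filterByExpr kept 8382 genes, TMM scaled the libraries, and quasi-likelihood tests were made on the 12 libraries with a shared spread. CPM values are counts over TMM-scaled library sizes. An adjusted p (Benjamini-Hochberg) under 0.05 called a pair, and under 0.0001 any difference among the 3 conditions. The tests were checked on simulated data. Replicates are labelled as separate samples, and the p-values measure the spread between these libraries.

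Named members were the 4 kinases, the member with the highest mean TPM of each factor group, and the 5 largest rises and falls among the members called in each pair, 31 in all, and at most 3 genes of each other list. Members and lists were chosen with earlier results of these data known. The alternatives were scaling by library size alone, TMM without globin and 7SL genes, DESeq2 1.42.0, other filters, the likelihood ratio test, the replicate number as a block, fits to only the compared groups, and leaving out each library. Strandedness of the counting is not given in the sources used here, so reads of genes that overlap on opposite strands may not be told apart.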

Additional observations from a re-analysis of the deposited data

Results flagged for a closer look

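In 141 groups of 4 libraries (the named members' CPM and the summed TPM of each factor group), 4 had a library whose gap to the nearest other exceeded Dixon's critical value, where chance alone gives about 1 in 20. Eif4g2 had 2.195 CPM in 20d replicate 1, below the other 20d libraries at 3.033 to 3.165 CPM. Eif4a1 had 2.144 CPM in Cont replicate 3, below the other Cont libraries at 2.776 to 2.889 CPM. Eef1akmt2 had 5.164 CPM in 20d replicate 3, above the others at 4.082 to 4.164 CPM. The eIF2B subunits summed to 2.884 TPM in 10d replicate 3, above the others at 2.342 to 2.383 TPM.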

How the results depend on the processing

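Depth limits the rare members, since calls on Eif4e3, Eif4a3, Eif1a and Eef1b2 rest on fewer than 100 counts per library, and most falls lost their call without some single library. Scaling by library size alone gave 0 rises and 11 falls at 10d against Cont, 0 and 16 at 20d against Cont, 1 and 1 at 20d against 10d, and 0 members among the 3 conditions. Among named values that passed under either scaling, it turned Eef2 (-0.10) and Eif5a (-0.33) at 10d, and Eef1a1 (-0.088), Eif2d (-2.13e-05), Eif3a (-0.10), Eif3i (-0.045), Eif4ebp3 (-0.36), Eif4g3 (-0.36) and Eif5a (-0.34) at 20d, because it moves the median of all genes. Values that passed under neither scaling could turn too, as Eef1a1 did at 10d (-0.16). TMM without globin and 7SL genes gave 2 rises at 10d and 1 fall at 20d against 10d. DESeq2 gave 2 members among the 3 conditions. No filter on low counts gave 0 falls at 10d, 5 falls at 20d against Cont and 2 members among the 3 conditions. A filter of 1 CPM in 4 libraries, which tests fewer genes, gave 2 rises and 2 falls at 10d, 2 rises and 5 falls at 20d against Cont, 1 rise at 20d against 10d and 0 members among the 3 conditions. The likelihood ratio test gave 0 falls at 10d, 5 falls at 20d against 10d and 2 members among the 3 conditions, and a fit to only the compared groups gave 1 fall at 20d against 10d. Where not stated, the cause was not tested.

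Leaving out each library gave 2 (without Cont replicate 2) to 5 rises and 0 to 1 falls at 10d, 9 to 13 rises and 1 (without Cont replicate 3) to 8 falls at 20d against Cont, 1 to 2 rises and 0 (without 10d replicate 2 or 20d replicate 3) to 3 falls at 20d against 10d, and 0 (without Cont replicate 2 or 4) to 1 members among the 3 conditions. With the replicate block there were 10 rises and 1 fall at 10d, 15 rises and 8 falls at 20d against Cont, 3 rises and 7 falls at 20d against 10d, and 2 members among the 3 conditions. At 10d that is 20.4% of the members, beside 18.7% of all genes, so that the members' share is then no longer below the background. The study split the blood of each rat over the conditions, but the rat behind a number is not given, and the numbers were not taken to pair the libraries because not every same-numbered correlation of deviations exceeded 0.1. They were 0.0466 to 0.214 between 10d and Cont (other numbers -0.186 to 0.0906), 0.0167 to 0.129 between 20d and Cont (-0.126 to 0.0531) and 0.0439 to 0.128 between 20d and 10d (-0.0924 to 0.0444), all above 0. In these pairs 2, 3 and 4 of 4 samples correlated best with their own number, a hint of pairing from the data.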

Other observations

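Some members kept an order of replicate numbers in all 3 conditions. The library numbered 1 was the lowest of its condition each time for 6 of the 54 tested members (11.1%, beside 5.36% of all genes tested), namely Eef1e1, Eif1, Eif1ad, Eif2s3y, Eif4e2 and Eif4g2. The library numbered 3 was the highest each time for 5 members (9.26%, beside 3.45%), Eef1e1, Eif1, Eif2b1, Eif2b4 and Eif3j. The library numbered 2 was the lowest each time for 4 (7.41%, beside 1.87%), Eef1a1, Eef2, Eif2ak2 and Eif3k. The other orders had shares near or below those of all genes. Number 1 was highest for 1.85% (beside 4.39%), number 2 for 0% (beside 2.09%) and number 4 for 1.85% (beside 1.8%). Number 3 was lowest for 1.85% (beside 2.68%) and number 4 for 0% (beside 1.9%). For Eif1 the lowest library had 47.5 CPM in Cont, 58.2 CPM in 10d and 45.9 CPM in 20d, and the highest 89.5, 93.5 and 87.4 CPM, so its spread within a condition exceeded the difference between conditions. The labels do not say what a replicate number stands for beyond its name.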
